A study of Mus musculus with 4 samples.

Results

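The mitochondrial genome of the mouse encodes 13 proteins, and 10 of their mRNAs are described here: COX1, COX2, COX3, CYTB, ATP6, ND1, ND2, ND4, ND5 and ND6. They were taken by name from a count table of 50559 genes in mouse embryonic stem cells (ESCs), and all 10 passed the filter on low counts. The set was chosen by name with the members' counts in these libraries in view, selected on their differing directions between knockdown and control. Levels and fold changes are therefore given as a description, with no test. The cells were of the line E14 and were grown on gelatin in serum replacement medium with leukemia inhibitory factor. They were transfected at 150 nM with an siRNA against Cnot1 (siCnot1) or with a non-targeting siRNA (siNT) and collected 48 h later, with 2 biological replicates per group. CNOT1 is the scaffold of CCR4-NOT, the cytoplasmic complex that shortens the poly(A) tails of mRNAs, and the comparison asked which transcripts depend on it. The study's methods describe the ESCs as carrying a tdTomato transgene under the MERVL promoter, a reporter of the 2-cell-like state, and they list more than 1 siRNA against Cnot1 without saying which was used for these libraries.

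Mitochondrial DNA is copied and transcribed inside the organelle by nuclear-encoded proteins. Long transcripts of each strand are cut into mRNAs, rRNAs and tRNAs, and the mRNAs then receive short poly(A) tails from a mitochondrial poly(A) polymerase, away from CCR4-NOT. All 13 proteins are subunits of the respiratory chain or of the ATP synthase. COX1, COX2 and COX3 form the core of complex IV (cytochrome c oxidase), CYTB is the cytochrome b of complex III, the ND proteins form part of the membrane arm of complex I, and ATP6 belongs to the proton channel of the ATP synthase.

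Mitochondrial genes are packed so tightly that some reading frames stop short of a full stop codon, and the ends of the 10 annotated genes are shown for that reason. They are the last 30 bases of each GENCODE M21 transcript, with the bases of the stop codon that the genome itself encodes in capitals.
COX1: gaggaaccaacctatgtaaaagtaaaaTAA
COX2: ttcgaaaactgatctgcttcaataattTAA
COX3: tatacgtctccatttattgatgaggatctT
CYTB: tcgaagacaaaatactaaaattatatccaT
ATP6: gtaagcctatatctacatgataatacaTAA
ND1: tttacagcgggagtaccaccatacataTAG
ND2: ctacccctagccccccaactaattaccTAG
ND4: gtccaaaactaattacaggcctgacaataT
ND5: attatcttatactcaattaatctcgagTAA
ND6: tttattattatcgagattactcgagatTAA
In COX3, CYTB and ND4 the genome supplies a single T, and the tail added after transcription completes the stop codon. The other members end in a full TAA or TAG. The annotation stops at the reading frame, and the mRNAs of COX1, ND5 and ND6 run on beyond it. The libraries were made from poly(A)+ RNA, and ND6 is known as the mitochondrial mRNA that carries little or no poly(A) tail. The members range in length from 519 bases (ND6) to 1824 (ND5), and in GC content from 34.1% to 39.9%. ND6 is the only one of them transcribed from the opposite strand.

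Counts on genes totalled between 32135824 and 32557440 per library. Cnot1 had 913 and 986 normalized CPM in siNT, which are counts scaled to the size of the library times a factor (TMM) that aligns the bulk of genes between libraries, and 185 and 192 in siCnot1, 19.8% of the control level (log2 fold change -2.33, SE 0.059, adjusted p = 2.37e-18 in the quasi-likelihood test of edgeR). At an adjusted p under 0.05 in edgeR, 15.0% of 18144 tested genes were higher in siCnot1 and 14.7% lower. Of 8 pluripotency markers, 6 were lower, with a summed level of 6494 to 6827 normalized CPM in siNT and 5412 to 5655 in siCnot1. Of 6 markers of 2-cell-like cells, 4 were higher, with sums of 67.8 to 70.7 in siNT and 143 to 166 in siCnot1. Of 6 primitive endoderm markers, 2 were higher (sums of 12.6 to 14.8 in siNT and 22.1 to 22.9 in siCnot1), and of 8 fibroblast markers, 4 of them tested, 2 were higher (17 to 20.3 and 25.2 to 29.2), with Col3a1, Dcn, Lum and Twist2 at or under the level of 3 counts in every library. Of 6 trophectoderm markers, 5 of them tested, 3 were lower (78.7 to 81.7 in siNT and 52.1 to 53.9 in siCnot1). The part of these marker shifts in the mitochondrial levels was not tested, and in bulk RNA a change per cell and a change in the mix of cells cannot be told apart.

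Mitochondrial genes took 1.17% and 1.4% of the counts in the siNT libraries and 2.11% and 1.76% in the siCnot1 libraries. The difference lay mostly in COX1, which alone had 0.411% and 0.478% of the counts in siNT against 1.14% and 0.914% in siCnot1. The other 9 members together had 0.723% and 0.868% in siNT and 0.904% and 0.789% in siCnot1, which overlap. With CYTB left out too, the other 8 had 0.444% and 0.539% in siNT and 0.644% and 0.549% in siCnot1. These did not overlap, but by a narrow margin. The replicates of a group differed from each other in total mitochondrial counts, siNT replicate 2 being above replicate 1 and siCnot1 replicate 1 above replicate 2, and the levels of every member lay in that order within each group, except for COX3 in siNT. At these depths counting error alone gave 95% Wilson intervals within 0.16 percentage points of each member's share of the 10, and these cover counting error only.

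Members of complex IV were higher in siCnot1. COX1 (mitochondrial genome 5328 to 6872 in the deposited table), the catalytic subunit that reduces oxygen, had 4267 and 4965 normalized CPM in siNT and 10957 and 8860 in siCnot1. Both siCnot1 libraries were well above both siNT libraries, and the fold change was 2.15 (log2 1.10). COX3 (8607 to 9390), a subunit beside the catalytic core, had 32.9 and 31.5 normalized CPM in siNT and 78.5 and 65.6 in siCnot1, a fold change of 2.24 (log2 1.16). COX2 (7013 to 7696), which takes up electrons from cytochrome c, had 99.1 and 118 in siNT and 136 and 127 in siCnot1, with a smaller fold change of 1.21 (log2 0.27). The counts on the 3 mRNAs of one enzyme thus differed in size of change, COX1 and COX3 lying close together and COX2 apart from both. COX2 and COX3 share nearly all of their sequence with nuclear copies (described below). How much of their changes belongs to the mitochondrial mRNAs is therefore uncertain.

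CYTB (14145 to 15288), the sole mitochondrially encoded subunit of complex III, went the other way. It had 2894 and 3419 normalized CPM in siNT and 2497 and 2325 in siCnot1. Both siCnot1 libraries were below both siNT libraries, a fold change of 0.764 (log2 -0.39). CYTB was the only member below its siNT range in both siCnot1 libraries.

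The complex I mRNAs were spread between these. ND5 (11742 to 13565), one of the proton-pumping subunits of the membrane arm, had 1182 and 1386 normalized CPM in siNT and 1945 and 1627 in siCnot1, 1.39-fold (log2 0.48) higher with no overlap. ND6 (13552 to 14070), which lies on the opposite strand and overlaps the end of ND5, had 255 and 294 in siNT and 365 and 318 in siCnot1 (log2 0.31), also without overlap. The sources used here do not give the strand setting of the counting, and without strand the reads of ND6 cannot be told apart from RNA of the other strand over the same bases. ND1 (2751 to 3707), at the junction of the membrane arm with the rest of the complex, had 1428 and 1747 in siNT and 1740 and 1542 in siCnot1 (log2 0.05). ND2 (3914 to 4951), a membrane-arm pump subunit, had 896 and 1068 against 933 and 845 (log2 -0.14), and ND4 (10167 to 11544), another, had 676 and 899 against 915 and 750 (log2 0.08). For ND1, ND2 and ND4 the groups overlapped.

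ATP6 (7927 to 8607) had 47.0 and 51.8 normalized CPM in siNT and 64.2 and 51.9 in siCnot1 (log2 0.23). The lower siCnot1 library lay only just above the higher siNT library. In total, 6 of the 10 members had both siCnot1 libraries above both siNT libraries, 1 had both below and 3 overlapped. Of all 18144 genes tested, 32.7% lay wholly above in the same way and 31.2% wholly below, and nothing is read from the members' counts because this contrast was used to choose them. The median log2 fold change of the members was 0.25, with a range from -0.39 to 1.16, against 0.0084 for all tested genes. It was 0.152 without siNT replicate 1 and 0.139 without siCnot1 replicate 1, and 0.355 and 0.343 without the other replicate of each group. Without siCnot1 replicate 1 the value of ATP6 was 0.0672, and without siNT replicate 1 that of COX2 was 0.146.

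**Figure D1:**
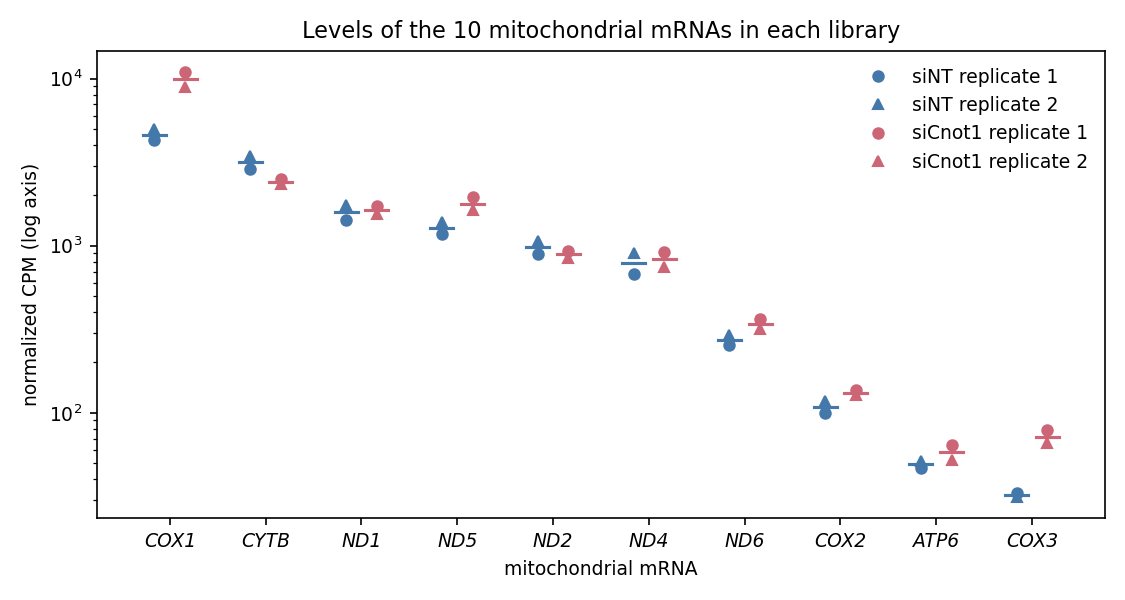
Normalized CPM (log axis) of each of the 10 mitochondrial mRNAs in the 2 siNT and 2 siCnot1 libraries, with points for libraries and short bars for group means. COX1 and COX3 stand higher in both siCnot1 libraries, CYTB stands lower, and ND1, ND2 and ND4 overlap between the groups.

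The mRNAs left out of the 10 are the short ones, and their counts were low. ATP8, a small subunit of the ATP synthase whose gene overlaps that of ATP6, had 66 and 116 counts in siNT and 123 and 145 in siCnot1. ND3 had 123 and 144 in siNT and 196 and 102 in siCnot1, and ND4L, whose gene overlaps that of ND4, had 185 and 227 against 275 and 183. The groups overlapped for each of these mRNAs.

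Because the total of mitochondrial counts differed between replicates, each member was also expressed as a share of the summed counts of the 10 members in the same library, which no scaling between libraries can alter. Replicates lay close together on this measure for COX1, but less so for some others, such as ND4 at 5.74% and 6.43% in siNT. COX1 made up 36.2% and 35.5% of the members' counts in siNT and 55.8% and 53.7% in siCnot1. CYTB made up 24.6% and 24.5% in siNT and 12.7% and 14.1% in siCnot1. The number of COX1 counts per CYTB count was 1.47 and 1.45 in the siNT libraries but 4.39 and 3.81 after siCnot1. COX3 had 0.279% and 0.225% in siNT and 0.400% and 0.397% in siCnot1, and the ratio of COX3 to COX1 counts overlapped between the groups, at 0.00770 and 0.00635 in siNT and 0.00717 and 0.00740 in siCnot1.

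Since a larger share of COX1 lowers all others, the shares were also taken without it. Among the other 9 members, CYTB held 38.5% and 37.9% in siNT and 28.8% and 30.4% in siCnot1. ND5 held 15.7% and 15.4% in siNT and 22.4% and 21.3% in siCnot1, and ND6 3.40% and 3.26% against 4.20% and 4.16%. ND5, which lies just before ND6 and CYTB in the genome, was thus at 0.408 and 0.405 counts per CYTB count in siNT and at 0.779 and 0.700 in siCnot1. ND1 held 19.0% and 19.4% in siNT and 20.1% in each siCnot1 library, ND2 held 11.9% and 11.8% against 10.8% and 11%, and ND4 overlapped, at 9% and 9.98% against 10.5% and 9.81%.

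**Figure D2:**
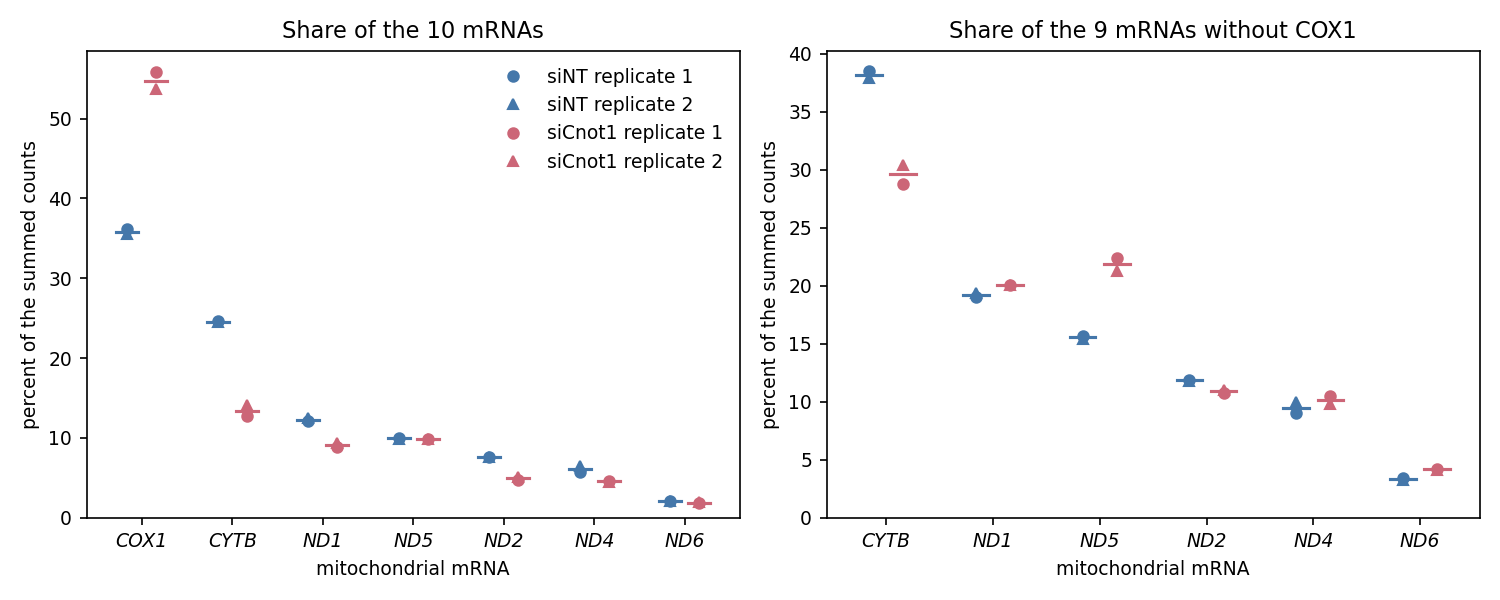
Percent of the summed counts of the 10 mRNAs (left) and of the 9 without COX1 (right) taken by each mRNA in each library, with points for libraries and bars for group means. COX2, ATP6 and COX3, each under 2% of either sum, are not drawn. COX1 stands at 36.2% and 35.5% in siNT and at 55.8% and 53.7% in siCnot1.

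Part of the mitochondrial genome also exists as copies in nuclear chromosomes, and reads from the copied stretches cannot always be assigned to one place. Each member was cut into windows of the read length, 150 bases, and these were sought in all nuclear GENCODE M21 transcripts. No window of CYTB, ND1, ND2, ND5 or ND6 was found there. COX1 shared 23.6% of its windows and ND4 59.2%, whereas COX2, ATP6 and COX3 shared 99.4%, 99.4% and 99.8%. In shorter windows of 100 bases ND2 shared 3.19%, and CYTB, ND1, ND5 and ND6 shared 0%. ND2 has the nuclear copy Gm13339 on chromosome 2, which matched it at 493 of 510 aligned bases. The nuclear copies Gm28661 of COX2, Gm10925 of ATP6, Gm28437 of COX3 and Gm28439 of ND4 lie on chromosome 1 and were identical to the mitochondrial sequence over 681, 678, 783 and 876 aligned bases. Gm29216, a copy of part of COX1 on chromosome 1, matched it at 486 of 492 aligned bases. All 6 differences lay between positions 1056 and 1066 of the 1545 bases of COX1, and the aligned bases after them were identical. Another nuclear transcript, Gm13340, also shared sequence with COX1 in the 100-base windows.

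The members with the most shared sequence had the fewest counts for their length. In siNT, per kb of transcript, COX1 had 2988 ± 320 normalized CPM (SD, n = 2), CYTB 2759 ± 325, ND1 1659 ± 236, ND2 946 ± 117, ND5 704 ± 78.9, ND4 572 ± 115 and ND6 529 ± 52.0. COX2 followed at 159 ± 19.9, ATP6 at 72.5 ± 5.00 and COX3 at 41.1 ± 1.20. COX1 and CYTB, ND5 and ND4, and ND4 and ND6 did not differ beyond their ranges. In siCnot1 COX1 stood alone at the top with 6413 ± 960 per kb, CYTB followed at 2108 ± 106 and ND1 at 1715 ± 146, and ND5 (979 ± 123) came ahead of ND2 (857 ± 59.8) with overlapping ranges. COX3 was at 91.9 ± 11.7 and ATP6 at 85.2 ± 12.8, also with overlap. ATP8, with no window shared with an annotated nuclear transcript, was at 14.3 ± 5.47 in siNT, and nuclear sequence outside annotated transcripts was not searched. The levels of COX2, ATP6 and COX3 are uncertain, and so is how much of their fold changes belongs to the mitochondrial mRNA. The same limit holds for the shared part of COX1 (23.6% of windows) and of ND4 (59.2%). The part of shared sequence in these values was not tested. ND5 and CYTB share no window, and their log2 fold changes were 0.48 and -0.39. Nothing is read from these opposite signs, because this contrast was used to choose the members.

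**Figure D3:**
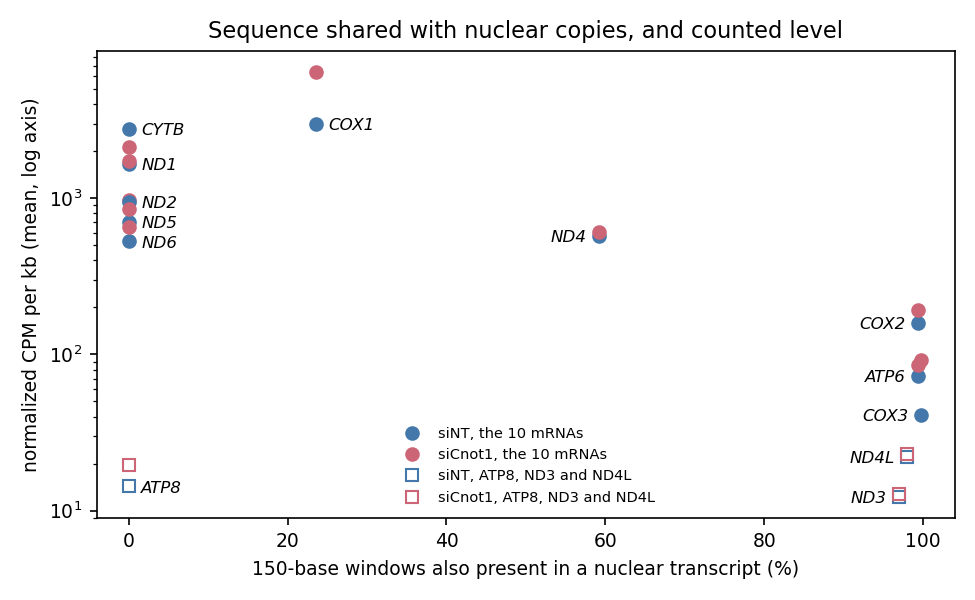
Percent of 150-base windows found in an annotated nuclear transcript (horizontal) against mean normalized CPM per kb (vertical, log axis) for the 10 mRNAs (circles) and ATP8, ND3 and ND4L (squares). COX2, ATP6 and COX3, with over 99% of windows shared, lie at the low end, while the 5 of the 10 with no shared window lie at 529 per kb or above in siNT, and ATP8, also with none, lies at 14.3.

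Nuclear copies were themselves listed in the table for ATP6 and ND4L. Gm10925 (GRCm39 chromosome 1, 24653052 to 24653732, minus strand), the copy of ATP6, had 117 and 109 normalized CPM in siNT and 125 and 111 in siCnot1, above ATP6 itself in every library. The difference did not pass the test (log2 fold change 0.06, SE 0.068, edgeR adjusted p = 0.531). When the counts of ATP6 and Gm10925 were summed, the log2 fold change of ATP6 went from 0.23 to 0.12, a setting added after the data were seen. Gm10222 (24651485 to 24651781), the copy of ND4L, had 30.5 and 36.1 in siNT and 36.9 and 31.5 in siCnot1 (log2 fold change 0.04, SE 0.1, edgeR adjusted p = 0.824), again above ND4L, at 5.47 to 8.21, in every library. ATP8 matched no annotated nuclear transcript, and nuclear sequence outside annotated transcripts was not searched.

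Counts on the ribosomal RNAs of the same genome differed from each other too. Because the libraries were made from poly(A)+ RNA, counts on rRNA and tRNA rows need not follow the levels of the mature RNAs. mt-Rnr1, the small-subunit rRNA, rose from 108 and 127 normalized CPM in siNT to 216 and 178 in siCnot1 (log2 fold change 0.75, SE 0.079, edgeR adjusted p = 2.1e-07). For mt-Rnr2, the large-subunit rRNA, siNT had 286 and 421 and siCnot1 385 and 372 (log2 fold change 0.10, SE 0.098, edgeR adjusted p = 0.49), but without siNT replicate 2 the mt-Rnr2 log2 fold change was 0.405 and passed (edgeR adjusted p = 0.0197). Per count of mt-Rnr2, siNT libraries held 0.378 and 0.301 counts of mt-Rnr1 and siCnot1 libraries 0.560 and 0.479. Of the 22 tRNA rows, 21 held no count in any library. The exception was TrnP, the proline tRNA on the same strand as ND6, with 7.65 and 8.71 normalized CPM in siNT and 14.2 and 11.3 in siCnot1 (log2 fold change 0.64, SE 0.15, edgeR adjusted p = 0.0023). That call was lost without the filter and in 3 of the 4 fits that leave out a library. The TrnP row is 67 bases long, shorter than the read length of 150 bases, and which RNA its counts came from was not tested.

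**Figure D4:**
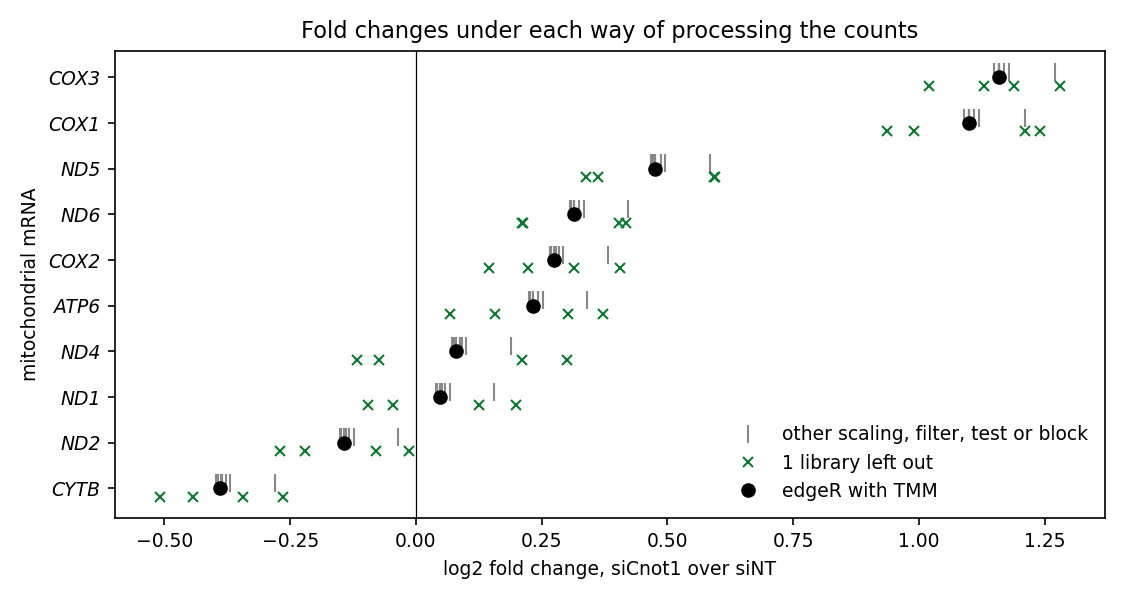
Log2 fold change of each mRNA, siCnot1 over siNT, with edgeR and TMM (circles), with other scalings, filters, tests or the replicate block (grey ticks), and with 1 library left out (crosses). The values of COX1 and COX3 stay at 0.937 or above and those of CYTB below 0, and those of ND1 and ND4 lie on both sides of 0.

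The nuclear genes that make, process and translate mitochondrial RNA were examined next. Some of them act on all members and others on a single mRNA or complex. Of 91 tested genes in 5 lists, 7 were higher and 15 lower in siCnot1 at an adjusted p under 0.05 in edgeR (7.69% and 16.5%), beside 15.0% and 14.7% of all tested genes. Their median log2 fold change was -0.03. With library totals in place of TMM, which raises the median of all genes from 0.0084 to 0.12, the split became 16 higher and 8 lower. Apart from Tfb2m, Ssbp1, Lactb2, Grsf1, Ndufs1, Atp5h and Vdac1, each nuclear gene called below lost its call in at least 1 of the 4 fits that leave out a library.

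Of 11 genes of mitochondrial transcription, none was higher and 3 were lower. Tfb2m, the factor that opens the promoters for the mitochondrial RNA polymerase, fell from 32.3 and 32.4 normalized CPM in siNT to 16.2 and 16.1 in siCnot1 (log2 fold change -1.0, SE 0.1, edgeR adjusted p = 1.29e-07). Tefm, the elongation factor, fell by 0.45 on the log2 scale, and Tfb1m, an rRNA methyltransferase, fell by 0.44 (adjusted p = 0.00189 and 0.00308 from edgeR). The polymerase Polrmt (log2 fold change 0.07, adjusted p = 0.602) and the DNA-packaging activator Tfam (-0.11, adjusted p = 0.203) did not pass edgeR's test. The call for Tfb2m was kept under each of 9 other scalings, filters and tests, and in each of 4 fits with 1 library left out, whereas those for Tefm and Tfb1m were kept in 1 of those 4.

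Of 30 genes for processing, tailing and decay of mitochondrial RNA, 2 were higher and 6 lower, with a median of -0.02. Lactb2, an endoribonuclease of the matrix, fell from 199 and 206 normalized CPM to 134 and 140 (log2 fold change -0.57, SE 0.059, edgeR adjusted p = 1.61e-07). Grsf1, an RNA-binding protein of mitochondrial RNA granules, fell from 225 and 231 to 185 and 179 (log2 fold change -0.33, adjusted p = 0.000121), and Trmt10c, a subunit of the enzyme that cuts tRNA 5′ ends, from 44.9 and 48.8 to 37.7 and 36.2 (-0.34, adjusted p = 0.00467 from edgeR). Supv3l1, the helicase of the mitochondrial RNA degradosome, had a log2 fold change of -0.25 (adjusted p = 0.0128) and its partner nuclease Pnpt1 one of 0.20 (adjusted p = 0.037 from edgeR). The call for Supv3l1 was lost with library totals and without the filter, and that for Pnpt1 without the filter and with DESeq2 (adjusted p = 0.0832). Lrpprc, which binds mitochondrial mRNAs and stabilizes them, had -0.18 (adjusted p = 0.0307 from edgeR), and this call was lost with upper-quartile scaling, library totals, no filter, the replicate block or any library left out. Its partner Slirp (-0.12, adjusted p = 0.579), the poly(A) polymerase Mtpap (-0.02, adjusted p = 0.903), the mitochondrial deadenylase Pde12 (0.07, adjusted p = 0.619), and Fastk (0.11, adjusted p = 0.437) and Fastkd5 (0.08, adjusted p = 0.596), of a family that binds mitochondrial RNAs, did not pass edgeR's test.

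Of 27 tested genes of mitochondrial translation and of assembly of the encoded proteins, 2 were higher and 2 lower, with a median of -0.06. Cox10, which makes the heme of COX1, was higher (log2 fold change 0.37, adjusted p = 0.00753), and so was Mss51, at a low level of 1.29 and 1.4 normalized CPM in siNT and 2.6 and 2.36 in siCnot1 (0.88, adjusted p = 0.0367 from edgeR). Cox14, an assembly factor of COX1, was lower (-0.42, adjusted p = 0.0106), as was Oxa1l, which inserts the encoded proteins into the inner membrane (-0.22, adjusted p = 0.0178 from edgeR). The call for Mss51 was lost without the filter and with DESeq2 (adjusted p = 0.155), that for Cox10 without the filter, and those for Cox14 and Oxa1l with library totals and without the filter. Taco1, the translational activator of COX1, was at -0.22 and did not pass edgeR's test (adjusted p = 0.191). Of 14 genes of mtDNA replication and nucleotide supply, 2 were higher and 3 lower, with a median of -0.01. Among them the single-strand binding protein Ssbp1 fell by 0.41 and the ribonucleotide reductase subunit Rrm2b by 0.72 on the log2 scale (adjusted p = 9.72e-05 and 0.000285 from edgeR), the helicase Twnk was at -0.20 and the topoisomerase Top1mt at 0.50 (adjusted p = 0.0389 and 0.0311 from edgeR). The last 2 calls were lost without the filter, with DESeq2 and with any library left out. That for Twnk was also lost with upper-quartile scaling, library totals and the replicate block. Of 9 tested regulators of mitochondrial biogenesis, with a median of -0.02, Esrra was higher (log2 fold change 0.57, adjusted p = 0.000498) and Gabpb2 lower (-0.25, adjusted p = 0.00435 from edgeR, a call lost with library totals), and Ppargc1b, at 0.39, did not pass (adjusted p = 0.0616 from edgeR).

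Of all tested genes, 15.0% were higher and 14.7% lower, and the nuclear-encoded subunits of the members' complexes were counted beside these shares. Of 37 subunits of complex I, 0 were higher and 7 lower in edgeR, with a median log2 fold change of -0.08. Of 9 subunits of complex III, 0 were higher and 3 lower (median -0.11), and of 16 of the ATP synthase 0 were higher and 4 lower (median -0.11). Of 11 nuclear subunits of complex IV, 2 were higher and 0 lower (median -0.03). With library totals, complex I had 4 higher and 1 lower, and complex III 0 higher and 0 lower. The ATP synthase then had 1 higher and 1 lower, and complex IV 3 higher and 0 lower. With 1 library left out, 1 to 3 subunits of complex I, 0 to 1 of complex III and 1 to 3 of the ATP synthase were lower and 0 to 1 of complex IV higher, and without the filter these counts were 2, 1, 2 and 0. Cox6a1 and Cox8a were those higher, with log2 fold changes of 0.29 and 0.22 (adjusted p = 0.00219 and 0.0111 from edgeR), while Ndufs1 (-0.41, adjusted p = 1.9e-05), Uqcrc2 (-0.24, adjusted p = 0.00259) and Atp5h (-0.42, adjusted p = 2.87e-05 from edgeR) led the lower ones. The call for Uqcrc2 was lost with library totals.

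Of 15 tested genes whose products are abundant in mitochondria, taken as signs of mitochondrial content, 0 were higher and 10 lower, with a median of -0.17, beside 14.7% lower among all tested genes. Without the filter 3 were lower. Leaving out siNT replicate 1 or 2 left 1 or 3 lower, and leaving out siCnot1 replicate 1 or 2 left 2 or 4 lower, with 1 higher without siCnot1 replicate 1. The part of mitochondrial content in the members' levels was not tested. Vdac1, the main channel of the outer membrane, fell from 745 and 721 normalized CPM in siNT to 498 and 516 in siCnot1 (log2 fold change -0.53, SE 0.053, edgeR adjusted p = 9.76e-08). Vdac3 (-0.36, adjusted p = 0.00012), the matrix chaperone Hspd1 (-0.23, adjusted p = 0.00186) and the inner-membrane scaffold Phb (-0.27, adjusted p = 0.00256 from edgeR) were lower as well, the call for Hspd1 being lost with library totals and that for Phb without the filter. Over the 88 genes of the respiratory chain and mitochondrial content, 2 were higher and 24 lower (2.27% and 27.3%). Blocking on the replicate number left 15 lower, and with library totals 9 were higher and 5 lower, with 1 and 3 among the 15 content genes.

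**Figure D5:**
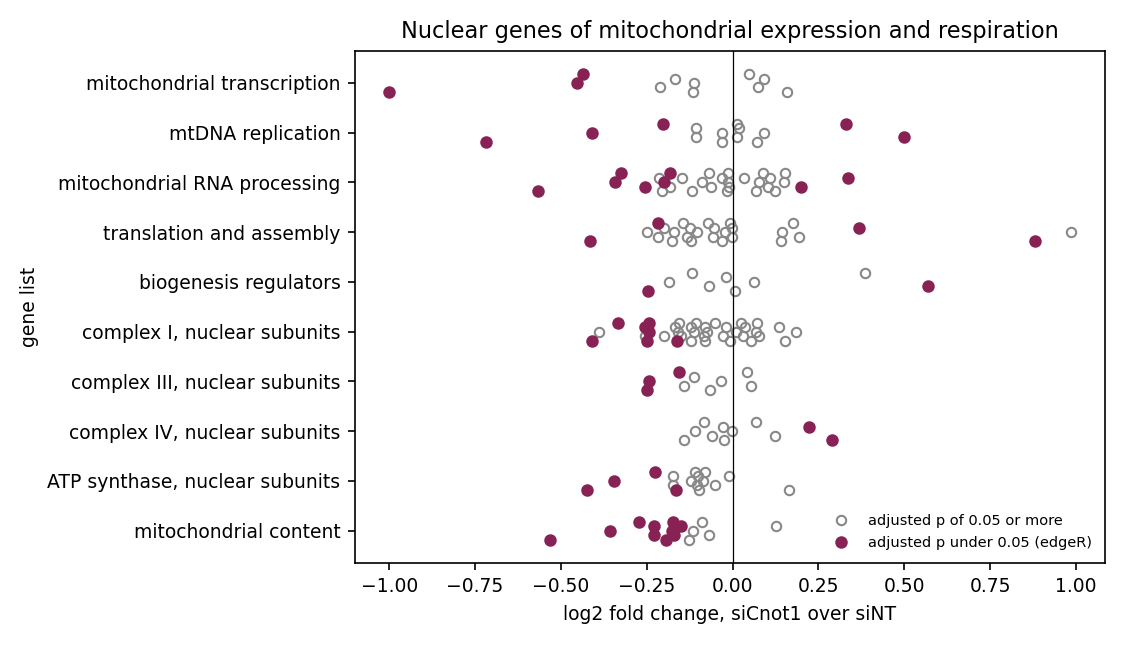
Log2 fold change (siCnot1 over siNT) of each tested nuclear gene in 10 lists, with filled points for an adjusted p under 0.05 in edgeR. Tfb2m lies at -1.0 in the top row, and of the mitochondrial content genes in the bottom row 10 of 15 are filled, all below 0.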

How the data were processed

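Poly(A)+ RNA of 4 libraries (2 siNT, 2 siCnot1) was sequenced by the authors as paired-end dUTP libraries, and the authors deposited raw counts per gene, neither normalized nor pooled, with each gene's position and exon length. The layout is that of featureCounts. The submitters' processing notes list fastp 0.19.4, HISAT2 2.2.1, DESeq2 1.40.2 and mm10, while nuclear gene positions in the table are those of GRCm39. The strand setting and the treatment of multi-mapping reads are not given in the sources used here. All 37 mitochondrial rows had the positions of GENCODE M21 (GRCm38), whose transcripts supplied the sequences. Library totals of 32135824 to 32557440 counts put 3 counts at 0.0896 to 0.0964 normalized CPM.

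Genes with low counts were left out by filterByExpr at its minimum count of 10, and edgeR 4.0.16 tested the other 18144 of 50559 (TMM, quasi-likelihood test, condition as the only term, Benjamini-Hochberg adjustment, threshold 0.05) in R 4.3.3. Standard errors (SE) were derived from the fold change and its F statistic. The fit was tested on simulated data. Alternatives were other scalings and filters, DESeq2 1.42.0, limma 3.58.1 (voom), a replicate block, and leaving out each library (its tests, and the sum of ATP6 with its nuclear copy, were added after the data were seen). The study's own calls came from DESeq2, at a raw p up to 0.05 and a log2 change of 1 or more in size. Members and lists were chosen with earlier results of these data known. Named nuclear genes are the up to 4 of each list with the smallest adjusted p under 0.05, and 13 regulators named whatever their p. The methods of the study call the replicates biologically independent.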

Additional observations from a re-analysis of the deposited data

How the results depend on the processing

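The direction of COX1, COX3, CYTB, ND2, COX2, ATP6, ND5 and ND6 was kept under each scaling, filter, test and left-out library, the shares aside. With 1 library left out, log2 fold changes ran from 0.937 to 1.24 for COX1, from 1.02 to 1.28 for COX3 and from -0.509 to -0.265 for CYTB. ND1 turned to -0.0961 without siNT replicate 1 and -0.0456 without siCnot1 replicate 1, and ND4 to -0.117 and -0.073, with highest values of 0.199 and 0.3 without siNT replicate 2. As shares of the 10 members, COX2, ATP6, ND1, ND4, ND5 and ND6 were at -0.208, -0.263, -0.436, -0.403, -0.0135 and -0.174 (log2 ratio), since COX1 takes a larger part of the sum. Without COX1 in the sum they were at 0.294, 0.24, 0.0667, 0.101, 0.49 and 0.329.

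Counts of calls depended more on the processing, and apart from fewer libraries and the shift that library totals give every gene the causes were not tested. Of all genes, 1303 were higher and 1450 lower without a filter, 1563 lower with library totals (71.9% of calls higher, against 50.5%), and 1121 and 326 at the study's threshold. Leaving out a library gave 743 to 1439 higher and 871 to 1463 lower, with the lone library assumed to vary like the others. For nuclear genes of mitochondrial RNA, library totals gave 16 higher and 8 lower, no filter 1 and 9, DESeq2 2 higher, and leaving out each library in turn 1 to 2 higher and 5 to 8 lower. For respiratory chain and content genes, library totals gave 9 higher and 5 lower, no filter 0 and 8, and leaving out each library 0 to 1 and 3 to 11. With the replicate block 15 of these were lower, and all other counts over these sets stayed within 1.5 times. Same-numbered libraries had deviations correlated at 0.0109 over 18144 genes, and this single correlation cannot exclude a shared batch. Signs also turned for Mtpap, Fastk, mt-Rnr2 and the nuclear copies, none of which passed the test in the fits that turned them. The Mtpap log2 fold change became 0.00303 with upper-quartile scaling and 0.0906 with library totals, and ran from -0.053 to 0.0103 with a library left out. Such fits gave a Fastk log2 fold change of -0.0167 to 0.239, an mt-Rnr2 log2 fold change of -0.158 to 0.405 (the latter, without siNT replicate 2, past the threshold), a Gm10925 log2 fold change of -0.0288 to 0.142 and a Gm10222 log2 fold change of -0.0817 to 0.163 (-0.0814 without siCnot1 replicate 1). The calls for Cnot1, Tfb2m, Ssbp1, Lactb2, Grsf1, Ndufs1, Atp5h, Vdac1 and mt-Rnr1 were kept in every fit, left-out libraries included, and every other named call was lost in at least 1 fit with a library left out.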
